A study of Homo sapiens with 6 samples.

Results

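The numbered zinc finger genes are the rows of the ChIP-seq count table whose name is ZNF followed by digits and at most 1 further letter, and 554 of the 56638 rows had such a name. Of these, 431 had at least 100 input counts in both input libraries together and are described here, against 21263 rows of any name past the same minimum. On chromosome 19 lay 199 of the 431 genes, and 232 lay elsewhere. Among the 431 genes, 408 were annotated as protein coding and 22 had another biotype, 17 of them pseudogenes. The remaining gene, ZNF720, had no coordinates in the annotation and for that reason was counted as elsewhere. RefSeq places it on a chromosome other than 19 under a later symbol. The minimum separated ZNF112, with 99 input counts, and ZNF829, with 93, from ZNF414, with 101, and ZNF878, with 102, all of them on chromosome 19.

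The cells were G401, a malignant rhabdoid tumor line that lacks SMARCB1, a core subunit of the SWI/SNF chromatin remodeling complex. They were treated for 3 days with the solvent DMSO or with 3 µM MAK683, a compound that binds the EED subunit of PRC2 and inhibits the enzyme. Each treatment gave 1 H3K27me3 library, 1 H3K4me3 library and 1 input library, 6 in all, and the labels speak of 1 replicate. A difference between libraries therefore has no replicate check, no test between treatments was possible, and every interval given here covers counting error only.

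C2H2 zinc finger genes form the most numerous class of human transcription factors, and each finger in the protein can contact a few bases of DNA. Many carry a KRAB domain, which binds the corepressor TRIM28 and through it the H3K9 methyltransferase SETDB1, and many of these proteins silence retroelements. Most KRAB zinc finger genes arose by tandem duplication and lie in clusters on chromosome 19. PRC2 writes H3K27me3, a mark of repressed developmental genes, whereas H3K4me3 lies at the promoters of active or poised genes.

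The 6 libraries held 13308099 to 21281877 counts over genes, the H3K27me3 library of MAK683 being the smallest at 0.694 times the H3K27me3 library of DMSO. Values were therefore compared as CPM, the count divided by the library's total and multiplied by 1000000, with 0.05 CPM added before a log2 ratio was taken, so that a change is a change in the share of a library, and a loss or gain of a modification common to the whole genome cannot be seen. SMARCB1 itself (chr22:24129118-24180196 in GRCh37, plus strand) had 0 input counts in both treatments. ZNF70 (chr22:24080869-24093299, minus strand), a numbered gene near SMARCB1, had 0 counts in all 6 libraries, and no part of its span is shared with another gene. The same was found for ZNF84 on chromosome 12, whose span is also unshared, and the reason was not tested for either gene. The log2 change between the input libraries had a median of 0.03 over the members on chromosome 19 and -0.01 over those elsewhere, and single members ran from -0.63 to 0.67.

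The promoters of 5 members are shown as examples of the patterns described below. For H3K27me3 over input in DMSO, ZNF536 was the highest member on chromosome 19 and ZNF423 came next to ZNF488, the highest elsewhere. For H3K4me3, ZNF296 was the highest on chromosome 19 and ZNF219 came next to ZNF703, the highest elsewhere. ZNF416 had the largest H3K27me3 change of the members with a mean of 50 or more counts. Each sequence is the RefSeq promoter of GRCh38.p14 from 250 bases before to 50 bases after the annotated start, on the gene's strand, with every CG dinucleotide in capitals. In that build they lie at chr19:30225342-30225641 (ZNF536, plus strand), chr16:49664275-49664574 (ZNF423, minus strand), chr19:45076429-45076728 (ZNF296, minus strand), chr14:21104673-21104972 (ZNF219, minus strand) and chr19:57578862-57579161 (ZNF416, minus strand).
ZNF536: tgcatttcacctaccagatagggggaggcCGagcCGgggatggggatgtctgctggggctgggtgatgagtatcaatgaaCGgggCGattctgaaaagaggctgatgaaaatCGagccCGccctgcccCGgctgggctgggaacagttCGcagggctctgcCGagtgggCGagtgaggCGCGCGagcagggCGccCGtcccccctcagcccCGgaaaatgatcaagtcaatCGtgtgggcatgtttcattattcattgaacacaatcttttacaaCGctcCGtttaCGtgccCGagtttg
ZNF423: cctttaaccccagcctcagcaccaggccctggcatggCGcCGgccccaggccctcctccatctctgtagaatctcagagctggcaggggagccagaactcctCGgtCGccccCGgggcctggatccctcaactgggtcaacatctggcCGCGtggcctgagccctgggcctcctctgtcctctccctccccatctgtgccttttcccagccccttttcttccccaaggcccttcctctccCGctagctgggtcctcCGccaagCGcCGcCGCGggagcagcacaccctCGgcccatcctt
ZNF296: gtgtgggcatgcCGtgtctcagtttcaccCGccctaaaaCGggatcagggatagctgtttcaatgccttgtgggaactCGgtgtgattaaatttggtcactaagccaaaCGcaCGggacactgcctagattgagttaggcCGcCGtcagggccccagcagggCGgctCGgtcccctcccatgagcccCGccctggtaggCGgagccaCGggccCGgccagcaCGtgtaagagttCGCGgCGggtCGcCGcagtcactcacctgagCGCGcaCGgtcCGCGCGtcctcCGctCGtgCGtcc
ZNF219: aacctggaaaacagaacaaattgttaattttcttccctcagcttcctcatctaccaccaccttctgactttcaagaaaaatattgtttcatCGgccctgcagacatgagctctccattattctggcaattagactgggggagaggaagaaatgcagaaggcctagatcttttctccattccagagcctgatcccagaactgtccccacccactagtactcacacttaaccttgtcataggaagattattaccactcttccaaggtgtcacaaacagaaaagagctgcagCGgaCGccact
ZNF416: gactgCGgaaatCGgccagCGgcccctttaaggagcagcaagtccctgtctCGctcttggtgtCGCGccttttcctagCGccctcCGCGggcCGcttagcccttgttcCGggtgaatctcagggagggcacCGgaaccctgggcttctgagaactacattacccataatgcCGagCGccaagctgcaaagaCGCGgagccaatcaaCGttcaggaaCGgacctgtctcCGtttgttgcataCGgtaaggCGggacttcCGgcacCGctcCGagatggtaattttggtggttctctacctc
The letters CG occurred 21 times in the window of ZNF536, 14 times in that of ZNF423, 29 times in that of ZNF296, 3 times in that of ZNF219 and 24 times in that of ZNF416. The motif is the same on both strands. At least 15 CG dinucleotides were found in 274 of the 345 members with a RefSeq promoter, 79.4%, against 48.8% of all 27305 RefSeq promoters and 70.3% of the 12535 rows with one that passed the input minimum. The median was 21 per promoter on chromosome 19 and 23 elsewhere.

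In DMSO, few numbered zinc finger genes had high H3K27me3, while their medians were near those of other protein-coding genes. Among genes of 20 to 40 kb the median log2 ratio to input was -0.83 over members on chromosome 19 and -0.96 over those elsewhere. Other protein-coding genes of that length had -0.79 and -0.89. Relative to input, the log2 ratio of H3K27me3 had a median of -0.85 over the 199 genes on chromosome 19 and of -0.93 over the 232 elsewhere, against -0.75 over all 21263 rows. The genes on chromosome 19 spanned a narrow range, with 90% of them between -1.27 and -0.47, whereas all rows reached from -1.35 to 1.35 over the same percentiles. In DMSO, 8 members, 1.86%, held H3K27me3 at 2 times input or more, against 10.7% of all rows. Of the other protein-coding genes on chromosome 19, 24 of 847, 2.83%, were at that level, so few such genes were found on this chromosome outside the ZNF names as well. At the other end, 141 members, 32.7%, were at no more than 1 part of H3K27me3 to 2 parts of input, against 28.9% of all rows. These were 51 of the 199 genes on chromosome 19, 25.6%, and 90 of the 232 elsewhere, 38.8%, where the other protein-coding genes were at 34.8%.

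**Figure D1:**
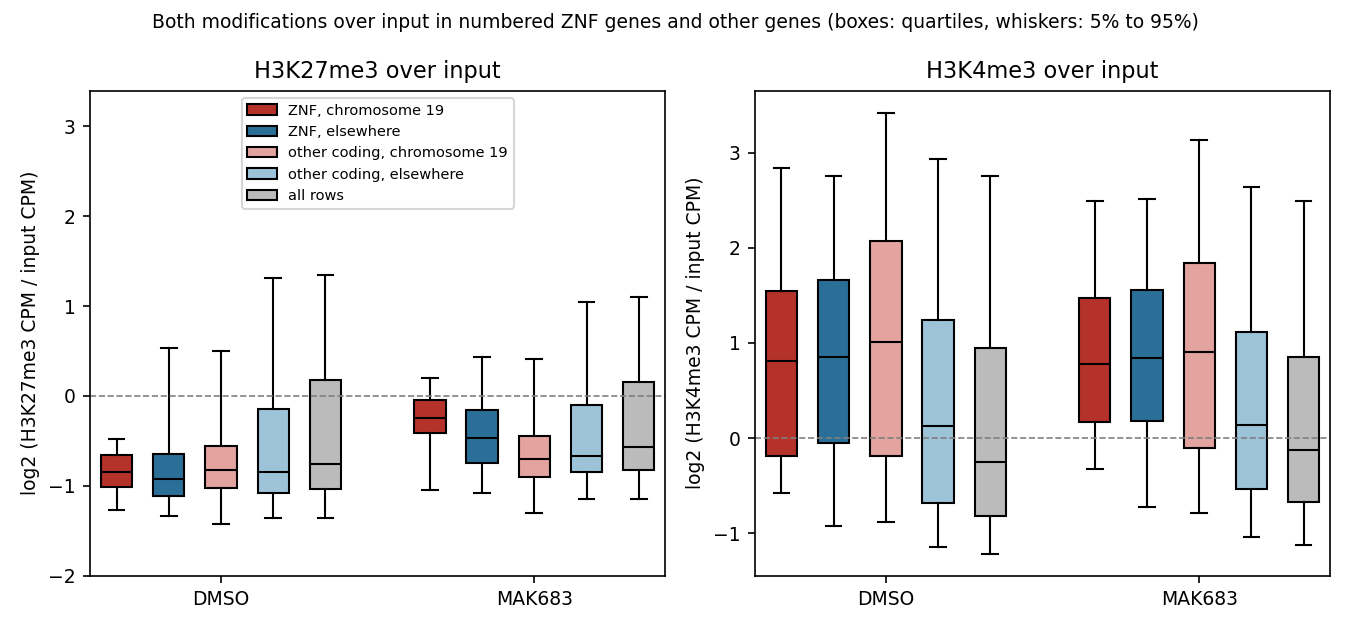
Log2 ratio of H3K27me3 CPM to input CPM (left) and of H3K4me3 CPM to input CPM (right) in the DMSO and MAK683 libraries for 5 groups of genes. Each box gives the quartiles and median over the genes of a group and the whiskers the range from the 5th to the 95th percentile. The H3K27me3 median of the chromosome 19 ZNF genes moves from -0.85 to -0.24, and that of all rows from -0.75 to -0.56.

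Few members carried H3K27me3 far above input, and on chromosome 19 ZNF536 alone passed 2 times input. ZNF536 (chr19:30715798-31204493 in GRCh37, plus strand, 489 kb) encodes a protein that restrains neuronal differentiation. It had 15217 H3K27me3 counts against 5645 input counts in DMSO and 9461 against 6902 in MAK683. Its log2 ratio to input was thus 1.24 (95% interval 1.20 to 1.29) in DMSO and 1.01 (0.96 to 1.05) in MAK683. The MAK683 value was just above 2 times input, with an interval that reaches below it. The next 3 genes on this chromosome, ZNF132, ZNF324 and ZNF329, were just below input, at -0.12, -0.17 and -0.29. The gap between ZNF536 and every other member on the chromosome was therefore more than 1 log2 unit.

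Elsewhere in the genome, 7 members passed 2 times input in DMSO. ZNF488 (chr10:48355069-48373866 in GRCh37, plus strand), a gene of oligodendrocyte differentiation, stood highest, with 1136 H3K27me3 counts against 243 input counts in DMSO and 549 against 283 in MAK683, a log2 ratio of 2.03 (1.84 to 2.24) and then 1.51 (1.30 to 1.72). ZNF423 (chr16:49521435-49891830, minus strand), which acts in cerebellar and fat cell development, had 14820 and 8779 H3K27me3 counts, and its log2 ratio to input went from 1.56 to 1.18. Both genes stayed above 2 times input in MAK683.

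ZNF831 (chr20:57698436-57834168, plus strand) had 2812 H3K27me3 counts before and 1810 after treatment, with log2 ratios to input of 1.49 and 1.43. ZNF366 (chr5:71735730-71803237, minus strand), known from dendritic cells, had 2229 and 1383 counts, with log2 ratios of 1.24 and 1.17. The remaining 3 of the 7, ZNF365, ZNF705G and ZNF840, lay between 1.04 and 1.17, and of these ZNF840 is a pseudogene whose span is wholly shared with other annotated genes. In MAK683, 7 members, 1.62%, were still at 2 times input or more, against 6.71% of all rows, and ZNF365, at 0.85, was the 1 that dropped below.

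The lowest members held few H3K27me3 counts. On chromosome 19, ZNF784 had 24 H3K27me3 counts against 79 input counts in DMSO, ZNF416 had 43 against 120, ZNF579 had 21 against 55 and the pseudogene ZNF137P had 26 against 61. Elsewhere, the lowest were ZNF395 with 13 against 55, ZNF740 with 42 against 161, ZNF281 with 24 against 84 and ZNF658 with 62 against 168. Their log2 ratios ran from -2.19 for ZNF395 to -1.38 for ZNF137P, on counts small enough that the interval for ZNF281 ran from -2.71 to -1.33.

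The H3K4me3 ratio of the members lay above the median of all rows, a comparison that depends on gene length. Among genes of 20 to 40 kb in DMSO, members on chromosome 19 had a median log2 ratio of 0.86. Other protein-coding genes of that chromosome had 1.01. Elsewhere the members had 1.14 and the other protein-coding genes 0.87. Under 10 kb these medians were 1.83 and 1.84 on chromosome 19, and 1.50 and 1.64 elsewhere. Over genes of any length, the median log2 ratio of H3K4me3 to input in DMSO was 0.81 on chromosome 19 and 0.85 elsewhere. All rows had -0.25 and the other protein-coding genes elsewhere 0.13. Without matching for length, H3K4me3 reached 2 times input in 194 members, 45%, against 24.2% of all rows. These were 85 of 199 genes on chromosome 19 and 109 of 232 elsewhere. The median of chromosome 19 was the lower one by 0.04, a difference whose sign changed with the choice of genes. The other protein-coding genes of chromosome 19 reached it in 427 of 847, 50.4%, so a high H3K4me3 ratio was shared with the rest of this chromosome. In MAK683 the call was made for 184 members, 42.7%, against 22.6% of all rows.

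The members with the most H3K4me3 over input were genes under 15 kb long. ZNF703, a gene of luminal breast tumors, had 2085 H3K4me3 counts against 41 input counts in DMSO and 1615 against 76 in MAK683, log2 ratios of 5.30 and 4.38. Its H3K27me3 counts were 85 in DMSO and 46 in MAK683, log2 ratios of 0.85 and -0.17 to input. On chromosome 19, ZNF296 (chr19:45574758-45579736 in GRCh37, minus strand), a gene expressed in pluripotent cells, had 991 H3K4me3 counts against 49 input counts in DMSO and 758 against 82 in MAK683.

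ZNF428, ZNF579 and ZNF414 followed on this chromosome, with log2 H3K4me3 ratios in DMSO of 3.78, 3.73 and 3.50. Elsewhere ZNF219 (chr14:21558236-21572881, minus strand), a partner of SOX9 in cartilage, had 1368 H3K4me3 counts against 78 input counts and a log2 ratio of 3.78, and ZNF668 and ZNF770 had 3.61 and 3.49. The ratio was thus high both over promoters rich in CG, such as that of ZNF296, and over ZNF219, whose printed window held 3. Over members with at least 15 CG dinucleotides, 71 of 128 on chromosome 19 and 79 of 146 elsewhere reached 2 times input, and with fewer than 15 the counts were 8 of 41 and 6 of 30. The counts are sums over whole genes, and the Spearman correlation between gene length and the H3K4me3 ratio across members was -0.40 (n = 430 genes, all read from the same libraries).

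In MAK683 the share of H3K27me3 counts falling on numbered zinc finger genes was higher than in DMSO, and more so on chromosome 19. The paper reports that MAK683 strongly depleted H3K27me3 across the genome of these cells. A higher share of the library therefore does not show a gain of the modification. The log2 change of H3K27me3 CPM had a median of 0.62 over the 199 genes on chromosome 19 and 0.33 over the 232 elsewhere, the latter turning to -0.19 in the counts as deposited, against 0.10 over all rows. Relative to the median of all rows, which other scalings moved to -0.10 (median of ratios), -0.11 (TMM) or -0.42 (as deposited), the members on chromosome 19 stood 0.52 higher and those elsewhere 0.23 higher in each of these scalings. The other protein-coding genes had medians of 0.16 on chromosome 19 and 0.12 elsewhere. The CPM was higher in MAK683 for 192 of 199 genes on chromosome 19 and 196 of 232 elsewhere, together 388 of 431, 90.0%, against 61.6% of all rows.

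The deposited counts show the same ordering without any scaling. More H3K27me3 counts were found in MAK683 than in DMSO for 137 of 199 genes on chromosome 19, 68.8%, and for 65 of 232 elsewhere, 28.0%, against 9.8% of all rows, although the MAK683 library was the smaller. Summed over the 199 genes on chromosome 19, H3K27me3 gave 54945 counts in DMSO and 52237 in MAK683, or 0.287% and 0.393% of the library. Without ZNF536, the sums were 39728 and 42776, or 0.207% and 0.321% of the library, 1.55 times as much in MAK683. The 232 genes elsewhere had 137469 and 102894 counts, 0.717% and 0.773% of the library, and the input share of the chromosome 19 genes was 0.405% in DMSO and 0.412% in MAK683.

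At the level of single genes, again without a replicate of either library, the H3K27me3 CPM was at least 2-fold higher in MAK683 for 33 members, 7.66%, against 1.15% of all rows. These were 23 of 199 genes on chromosome 19, 11.6%, and 10 of 232 elsewhere, 4.31%. In CPM none was at least 2-fold lower, against 0.263% of all rows, but in the counts as deposited ZNF324B on chromosome 19 and ZNF488 and ZNF641 elsewhere were, against 3.29% of all rows. The 95% interval of the MAK683 share of a gene's H3K27me3 counts lay above the library's own share, 41.0%, for 167 genes on chromosome 19 and 134 elsewhere, 301 in all or 69.8%, against 28.2% of all rows, and below it for 1 and 12 genes, 3.02% of members against 15.5% of all rows. With a pseudocount of 1 CPM the genes at least 2-fold higher were 7 on chromosome 19 and 4 elsewhere, against 0.179% of all rows. With TMM scaling they were 6 and 3, against 0.433%, and in the counts as deposited 1 and 1, against 0.108%.

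**Figure D2:**
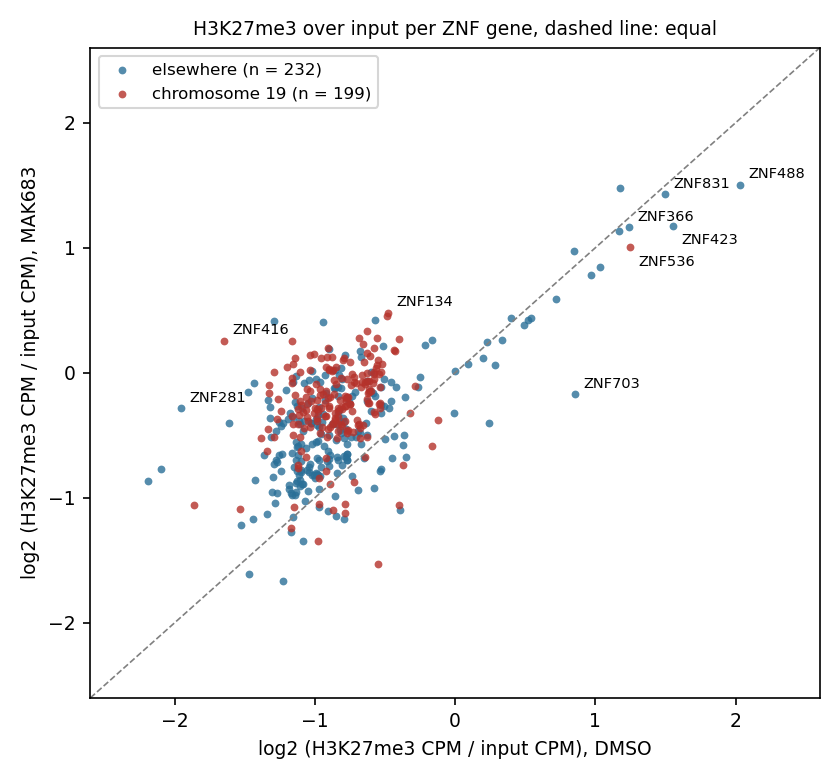
Log2 ratio of H3K27me3 CPM to input CPM for each of the 431 numbered ZNF genes in DMSO (x axis) and MAK683 (y axis), with genes on chromosome 19 in red, genes elsewhere in blue and a dashed line where both are equal. Most chromosome 19 genes form a cloud above the line, around -0.85 in DMSO and -0.24 in MAK683, while ZNF536, ZNF423 and ZNF488 lie at the upper right and below the line.

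Among members with a mean of 50 or more H3K27me3 counts, those with the largest increase in CPM had fewer H3K27me3 counts in DMSO than input would give. A ratio below input in DMSO was, however, found in all members but 1 on chromosome 19 and 21 elsewhere. ZNF416 (chr19:58082934-58090279, minus strand), a KRAB zinc finger gene, went from 43 to 98 H3K27me3 counts while its input counts were 120 in both treatments, a log2 change in CPM of 1.69 (1.18 to 2.27). ZNF134 (chr19:58125601-58136092, plus strand) went from 83 to 164 counts, a log2 change of 1.50 (1.12 to 1.91), with input counts of 102 and 172, and as a ratio over input in each treatment the change was 0.96. In both genes the H3K27me3 ratio to input was below 0 on the log2 scale in DMSO and above 0 in MAK683.

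ZNF175 (chr19:52074536-52095763, plus strand) went from 95 to 178 H3K27me3 counts and ZNF260 (chr19:37001589-37019173, minus strand) from 110 to 188, log2 changes of 1.42 and 1.29. Elsewhere ZNF572 went from 38 to 72 counts, a log2 change of 1.43 (0.86 to 2.05). The set is thus led by chromosome 19, with 4 of the 5 largest increases. ZNF416 was also among the lowest genes in DMSO, and since the DMSO count enters both values the 2 are not separate observations. ZNF274 (chr19:58694396-58724928, plus strand), chosen after its values were seen because its protein is known to bring SETDB1 to the coding ends of other zinc finger genes, went from 278 to 390 counts, a log2 change of 1.01 (0.79 to 1.24).

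Among members with as many counts, the 5 largest decreases were all outside chromosome 19. ZNF488 led with a log2 change of -0.52 (-0.67 to -0.37), followed by ZNF641, from 121 to 60 counts, at -0.48 (-0.96 to -0.03). ZNF396 went from 98 to 50 counts, ZNF648 from 121 to 64 and ZNF775 from 268 to 143, with log2 changes between -0.44 and -0.38. The intervals of ZNF396 and ZNF648 include 0. ZNF536 and ZNF423, the members richest in H3K27me3 counts, had changes of -0.16 (-0.20 to -0.12) and -0.23 (-0.27 to -0.19).

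**Figure D3:**
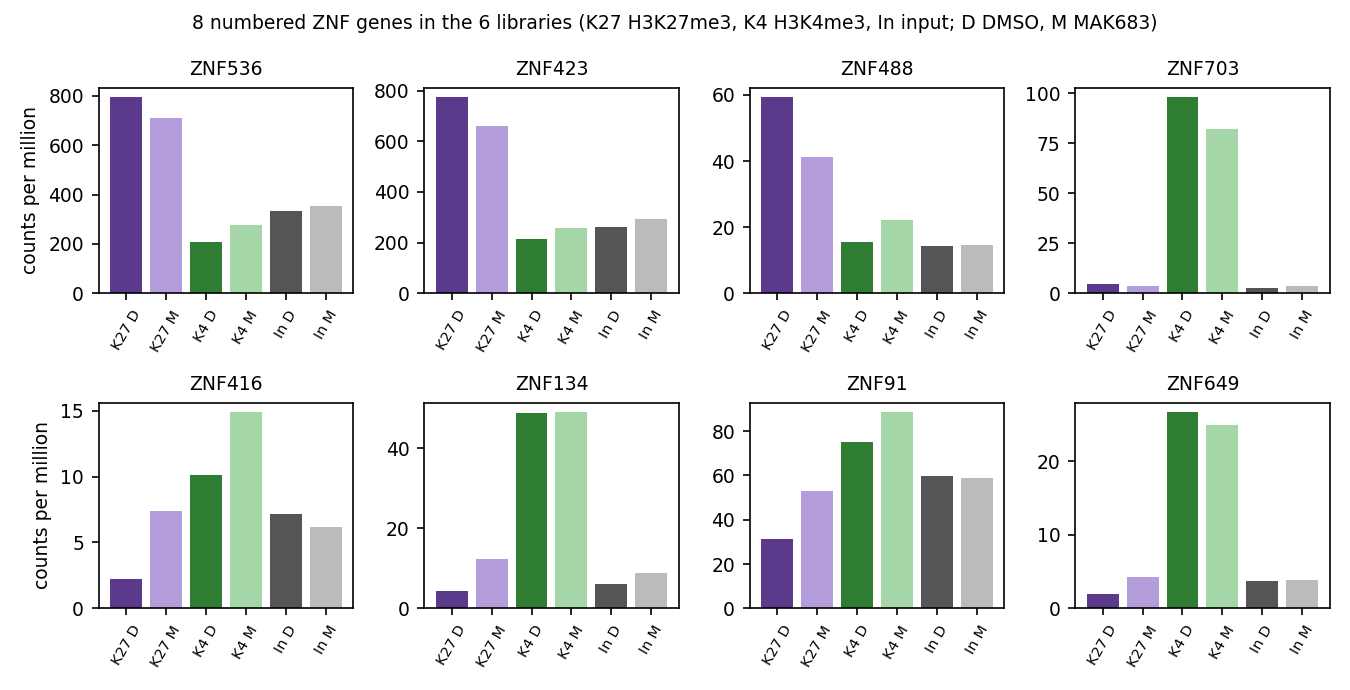
H3K27me3, H3K4me3 and input CPM (y axis) of 8 numbered ZNF genes in the 6 libraries, 1 bar per library, with H3K27me3 in purple, H3K4me3 in green and input in grey, DMSO dark and MAK683 light. In ZNF536 the H3K27me3 bar goes from 794 to 711 CPM, in ZNF416 from 2.24 to 7.36 CPM, and in ZNF134 from 4.33 to 12.3 CPM, against input of 335 and 354, 7.13 and 6.15, and 6.06 and 8.81 CPM.

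On chromosome 19 the median change in H3K27me3 CPM was above 0 in each cluster of ZNF genes. Neighboring members at most 500 kb apart formed 10 clusters of at least 5 genes, which held 187 of the 199 genes. The median log2 change of H3K27me3 CPM was lowest, 0.41, in the cluster from ZNF628 to ZNF835 (14 genes, chr19:55987984-57183151) and highest, 0.70, in that from ZNF175 to ZNF331 (36 genes, chr19:52074536-54083523). In the counts as deposited the medians of the same clusters were -0.11, the only one below 0, and 0.17. All 35 genes of the cluster from ZNF101 to ZNF254 near the centromere (chr19:19779605-24312770) and all 36 from ZNF175 to ZNF331 had a higher CPM in MAK683. Over all rows the share with a higher CPM was 61.6%.

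The distal cluster from ZNF264 to ZNF446 (chr19:57702868-58992597, 26 genes) held 8 of the 23 genes that were at least 2-fold higher, ZNF416 and ZNF134 among them. It also held the lowest value of any member, ZNF324B, from 61 to 27 counts and a log2 change of -0.64 (-1.36 to 0.03). H3K4me3 differed more between clusters than H3K27me3 did, with 17 of these 26 genes at 2 times input or more in DMSO but 6 of 35 from ZNF101 to ZNF254, where the median ratio was 0.08. The 12 members on chromosome 19 outside the clusters had a median H3K27me3 change of 0.54, with 10 of 12 higher, against 61.6% of all rows.

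Genes with other names in the same stretches of chromosome 19 had intermediate values. The 53 protein-coding rows that lie inside the 10 cluster spans without a ZNF number, a group formed after the data were examined, had a median log2 H3K27me3 change of 0.33, against 0.15 for the 794 other protein-coding rows of the chromosome outside the spans. The zinc finger rows named ZFP, ZBTB, ZSCAN or ZKSCAN, 76 in all, had a median of 0.36. Both groups lay between the chromosome 19 members and all rows, and the share of these rows that encode zinc fingers was not tested.

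Medians differed by the KRAB motif among genes elsewhere and were close together on chromosome 19. The motif, a short stretch of the KRAB A box searched in the translated coding sequences of 408 members, was found in 197. On chromosome 19 the median log2 H3K27me3 change was 0.63 over the 137 genes with the motif and 0.60 over the 54 without a match. Elsewhere it was 0.45 over 60 genes with the motif and 0.26 over 157 without a match. Absence of a match says only that these letters are not in the translation, and diverged KRAB domains are missed. On chromosome 19 the motif was found in 2 of 16 translated genes from ZNF575 to ZNF180 and in 5 of 13 from ZNF628 to ZNF835. How many genes without a match carry a KRAB domain was not tested.

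Medians varied less with the number of fingers than between chromosome 19 and elsewhere. On chromosome 19 the median change was 0.63 for genes with 4 to 8 fingers, 0.61 with 9 to 13 and 0.62 with 14 or more (28, 83 and 75 genes). Elsewhere the values were 0.27, 0.41 and 0.37 (60, 78 and 35 genes). Genes with 0 to 3 matches had 0.68 over 5 genes on chromosome 19 and 0.22 over 44 elsewhere. Fingers with other spacings, as in ZNF143, are not counted by the pattern.

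**Figure D4:**
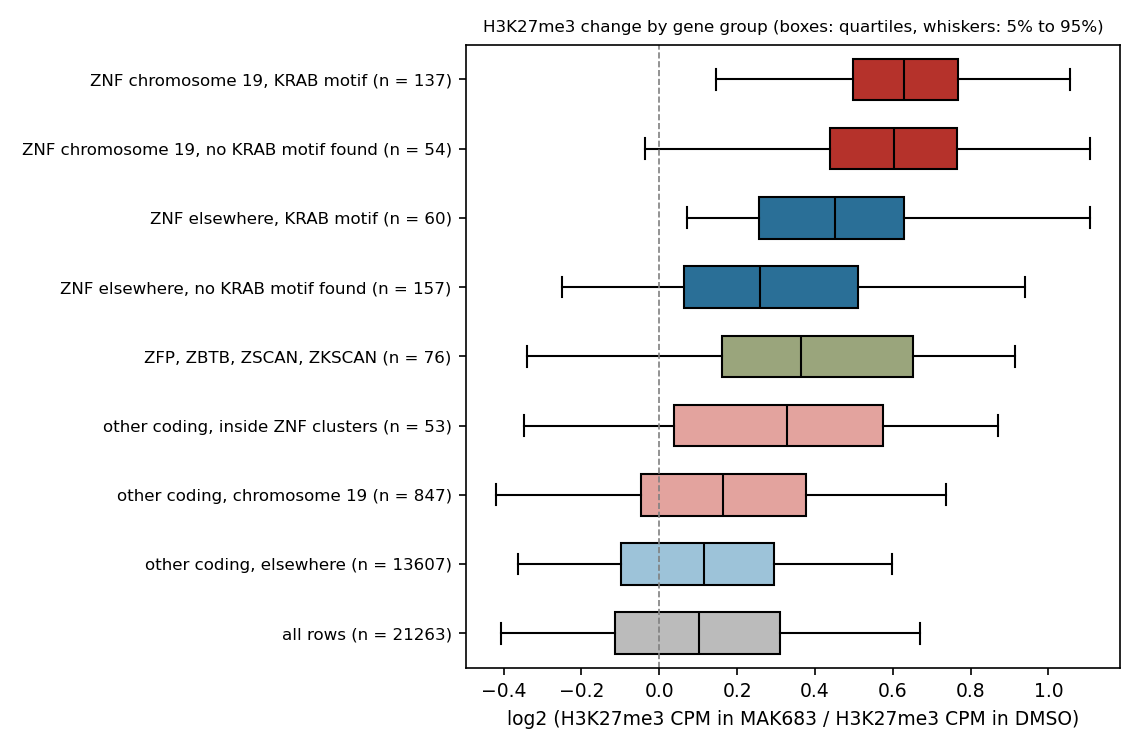
Log2 change of H3K27me3 CPM from DMSO to MAK683 in 9 groups of genes, with boxes at the quartiles and median over genes and whiskers from the 5th to the 95th percentile. From bottom to top the medians go from 0.10 for all rows over 0.33 for other coding genes inside the ZNF clusters to 0.63 for chromosome 19 ZNF genes with the KRAB motif.

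The difference between chromosome 19 and elsewhere was also computed among genes alike in base composition, length or level in DMSO, 1 property at a time. With 40% to 45% GC over the gene, the median H3K27me3 change was 0.65 over 98 members on chromosome 19 and 0.39 over 80 elsewhere, and with 50% GC or more it was 0.44 over 19 and 0.13 over 43. Among genes of 20 to 40 kb it was 0.64 over 82 and 0.41 over 69. Among genes with a log2 H3K27me3 ratio to input between -1 and -0.7 in DMSO it was 0.61 over 88 members on chromosome 19, 0.35 over 77 elsewhere, and 0.20 over 320 other protein-coding genes of chromosome 19. With a ratio of 0 or more there was 1 member on chromosome 19, ZNF536, at -0.16, and the median of 21 elsewhere was -0.11. These medians are descriptions, since the genes share the same 2 libraries and paralogs share sequence.

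In terms of the ratio to input, the members on chromosome 19 moved toward 0. Their median log2 H3K27me3 ratio was -0.24 in MAK683, above the -0.46 of the members elsewhere and the -0.56 of all rows, whereas in DMSO it had been slightly below that of all rows. Members at no more than 1 part of H3K27me3 to 2 parts of input went from 141 to 26, 6.03%, against 10.1% of all rows in MAK683. The Spearman correlation between the H3K27me3 ratios of both treatments was 0.26 over the 199 genes on chromosome 19 and 0.51 over the 232 elsewhere. For H3K4me3 it was 0.96 and 0.98. A narrow range of ratios, as on chromosome 19 for H3K27me3 in DMSO, and counting error both lower such a correlation. Whether the order of genes differed beyond that was not tested.

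Of 9 listed genes whose products bind retroelements, 6 passed the input minimum, 5 of them on chromosome 19, and ZNF93, ZNF417 and ZNF587 had 0 to 2 input counts in both libraries together. The H3K27me3 CPM was higher in MAK683 in all 6, against 61.6% of all rows. Their median log2 change was 0.76, beside 0.62 over the members on chromosome 19 and 0.50 over all members, a difference that was not tested. ZNF91 (chr19:23487793-23578273, minus strand), which silences SVA elements, went from 602 to 707 H3K27me3 counts, with 1003 and 1149 input counts, a log2 change of 0.76 (0.60 to 0.92).

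ZNF649, which acts on L1 elements, went from 38 to 56 H3K27me3 counts, a log2 change of 1.07 (0.47 to 1.72), and most of its span is shared with other annotated genes. ZNF808, known for a part in pancreas formation, went from 214 to 254 counts, ZNF382 from 177 to 211 and ZNF765 from 219 to 242, with log2 changes of 0.77, 0.78 and 0.67. ZNF445, which keeps imprinted loci methylated and lies on chromosome 3, went from 292 to 313 counts, a log2 change of 0.62 (0.39 to 0.86). H3K4me3 in the 6 genes had a median log2 change of 0.08.

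The developmental members had more H3K27me3 and no such increase in CPM. Of 18 listed, 15 passed the minimum, and ZNF503, ZNF385A and ZNF750 had 0 counts in all 6 libraries. Their median log2 H3K27me3 ratio to input was 0.23 in DMSO, with 3 of 15 at 2 times input or more, against 10.7% of all rows. Their median change was -0.03, with 6 of 15 higher in MAK683, against 61.6% of all rows. ZNF385B (8969 and 5607 H3K27me3 counts), ZNF365 (8243 and 5139) and ZNF804A (4988 and 3426) had H3K27me3 above input in both treatments. ZNF521, a regulator of blood and neural progenitors, was below input, with 1934 H3K27me3 counts against 3516 input counts in DMSO.

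The 12 widely expressed members, none of them on chromosome 19, had little H3K27me3 and much H3K4me3. Their median log2 ratios in DMSO were -1.09 for H3K27me3 and 1.09 for H3K4me3. For H3K4me3, 7 of 12 were at 2 times input or more, against 24.2% of all rows. The H3K27me3 CPM was higher in MAK683 in all 12, against 61.6% of all rows, with a median log2 change of 0.25. ZNF281, a factor of pluripotent cells, changed most, from 24 to 52 counts, a log2 change of 1.60 (0.92 to 2.40). ZNF207, a mitotic spindle protein, changed least, from 136 to 97 counts, a log2 change of 0.04 (-0.35 to 0.42). ZNF598, which senses collided ribosomes, went from 77 to 94 counts, a log2 change of 0.81 (0.36 to 1.27).

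The genes of the corepressor machinery that KRAB proteins recruit are not ZNF genes. Of the 14 listed, all passed the minimum, and their median log2 H3K27me3 change was 0.22, beside 0.16 over the other protein-coding genes on chromosome 19 and 0.12 over those elsewhere. Their median log2 H3K4me3 change was -0.18, and the interval of the H3K4me3 share lay below the library's own share for 8 of them and above it for 0, against 24.7% and 22.7% of all rows. TRIM28, which lies at the end of chromosome 19, had 55 and 37 H3K27me3 counts, a log2 change of -0.05 (-0.69 to 0.58), and 1473 and 1133 H3K4me3 counts. SETDB1 had 259 and 220 H3K27me3 counts, a log2 change of 0.29 (0.02 to 0.56).

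H3K4me3 changed little in the members, and no member was 2-fold higher or lower, against 0.696% and 0.0988% of all rows. The median log2 change of H3K4me3 CPM was 0.07 on chromosome 19, where it turned to -0.11 with median-of-ratios, -0.05 with TMM and -0.04 without scaling, -0.05 elsewhere and 0.00 over all rows. Counting intervals of the MAK683 share lay above the library's share of 48.0% for 68 of 199 genes on chromosome 19 and 32 of 232 elsewhere, 23.2% of members against 22.7% of all rows. They lay below it for 34 and 70 genes, 24.1% of members against 24.7% of all rows. Over all members, both shares were near those of all rows, but the 2 groups departed in opposite directions. On chromosome 19, 34.2% of genes lay above and 17.1% below, and elsewhere 13.8% lay above and 30.2% below. Of the other protein-coding genes elsewhere, 21.5% lay above and 31.2% below, the latter near the members there. Protein-coding rows without a ZNF number inside the chromosome 19 cluster spans lay above in 35.8% and below in 22.6%. The share above on chromosome 19 was thus not particular to the members.

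Among members with a mean of 50 or more H3K4me3 counts, the 5 largest increases were on chromosome 19. ZNF493 (chr19:21579921-21610379, plus strand) went from 76 to 139 H3K4me3 counts, a log2 change of 0.98 (0.57 to 1.41), and ZNF776 from 55 to 99, at 0.95 (0.48 to 1.47). ZNF285B went from 72 to 126 counts, ZNF556 from 115 to 178 and ZNF542 from 105 to 157, with log2 changes of 0.91, 0.74 and 0.69. ZNF285B is a pseudogene and ZNF542 is annotated as a noncoding RNA. All 5 had H3K4me3 below input in DMSO, with log2 ratios between -0.52 and -0.02, and above it in MAK683. The 5 were chosen by the change, and the same counts enter the change and these ratios, so they are not separate observations. More than 50% of the span of ZNF493, ZNF776 and ZNF542 is shared with other annotated genes, so the counts may not be theirs alone.

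The 5 largest H3K4me3 decreases were in genes with H3K4me3 above input in DMSO. Here too the DMSO count enters both the change and the ratio to input. ZNF608, a developmental member, went from 4629 to 3104 H3K4me3 counts, a log2 change of -0.46 (-0.53 to -0.39). ZNF726 went from 177 to 110 counts, ZNF414 from 611 to 407, ZNF436 from 1070 to 726 and ZNF575 from 665 to 454, with log2 changes between -0.57 and -0.43. Changes of both modifications were hardly related across genes, with a Spearman correlation of 0.06 on chromosome 19 (n = 199 genes) and -0.01 elsewhere (n = 232 genes).

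Of the 123 rows with a numbered ZNF name under the input minimum, 78 had no input count at all and 62 lay on chromosome 19. Less than 50% of the span was free of other annotated genes in 102 of the 123, whereas 352 of the 431 members had at least 50% of their span to themselves. Reads over near-identical zinc finger exons of paralogs, and over overlapping genes, could have been split or left uncounted by the counting, and the counts of single genes in the clusters are uncertain to that extent.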

How the data were processed

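ChIP-seq libraries of G401 cells were analysed from the table of raw counts per gene that the authors deposited, 6 columns, each matched to a sample by its title. Per the labels and the study's methods, the authors trimmed reads with Trim Galore 0.4.4, aligned them to hg19 with Bowtie2, depleted repeats with Picard 2.23.6 and counted reads per gene with featureCounts. The annotation they used is not given in the sources used here. A Drosophila spike-in is described in the methods, but whether it was applied to the deposited counts, which are whole numbers, is not given in the sources used here. Counts were scaled to each library's total, so differences between treatments are relative to it.

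Counts were divided by library totals (13308099 to 21281877), a pseudocount of 0.05 CPM was added, and log2 ratios were taken. A call is a ratio of at least 2. Intervals are 95% Clopper-Pearson intervals of the share of counts and cover counting error only, and PCR copies are not independent molecules. With 1 library per condition no test was run. Alternatives changed the scaling, the pseudocount, the input minimum and the genes kept. Python 3.11.15, pandas 2.3.3, scipy 1.17.1 and edgeR 4.0.16 (TMM factors in an alternative) were used, and the script was tested on simulated data. Coordinates, biotypes and GC content came from GENCODE 44 on GRCh37, the sequence of hg19, and promoters from RefSeq (GRCh38.p14).

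Fingers (C, 2 residues, C, 12 residues, H, 3 to 5 residues, H) and the KRAB motif (F, S or T, any residue, E or K, E, W) were counted in translated GENCODE coding sequences, since no protein table was used here. The named genes are, on chromosome 19 and elsewhere, the 4 highest and 4 lowest for H3K27me3 and the 4 highest for H3K4me3 over input in DMSO, the 5 largest changes each way of each modification of those averaging 50 or more counts, and the listed genes. Members and lists were chosen with earlier results of these data known.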

Additional observations from a re-analysis of the deposited data

How the results depend on the processing

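The difference between the medians of chromosome 19 and elsewhere moved by less than the combined rank-interval width of both medians under each alternative run, for all 6 measures, and kept its sign for both changes and for H3K27me3 over input. For H3K4me3 over input the sign was not stable, with 0.02 at a summed input of at least 500 in DMSO against -0.04, and the difference was -0.32 in both treatments among genes of 10 to 50 kb. Changes against a fixed 0 moved because a scaling shifts every row. The median H3K27me3 change on chromosome 19 and elsewhere was 0.416 and 0.122 with median-of-ratios factors, 0.406 and 0.112 with TMM factors, and 0.0975 and -0.194 for counts as deposited. With 1 CPM as pseudocount the chromosome 19 median was 0.577, or 0.483 above all rows, and among genes of 10 to 50 kb the median elsewhere was 0.407. The H3K4me3 medians were -0.111 and -0.233 with median-of-ratios factors, -0.0460 and -0.168 with TMM factors, -0.0422 and -0.165 as deposited, and -0.00576 elsewhere as a ratio over input. H3K4me3 against all rows was 0.142 on chromosome 19 and 0.00564 elsewhere among genes of 10 to 50 kb, and -0.0184 elsewhere with at least 50% of the span unshared.

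Counts of genes at least 2-fold higher for H3K27me3 on chromosome 19 and elsewhere, 23 and 10 as reported (1.15% of all rows), were 6 and 3 with median-of-ratios factors (0.451%), 6 and 3 with TMM factors (0.433%), 7 and 4 with 1 CPM as pseudocount (0.179%), 7 and 0 with a summed input of at least 500 (0.0864%), 30 and 13 with one of at least 1 (7.36%), 19 and 15 as a ratio over input (1.62%), and 1 and 1 for counts as deposited (0.108%). Genes at least 2-fold lower, 0 and 0 as reported (0.263%), were 1 and 2 as deposited (3.29%), 1 and 3 with a summed input of at least 1 (6.66%) and 0 and 1 as a ratio over input (0.837%). Genes at least 2-fold higher elsewhere were 6 among genes of 10 to 50 kb and 6 with at least 50% of the span unshared (0.902%). H3K4me3 at 2 times input in DMSO was found in 36 and 48 genes with a summed input of at least 500, where fewer genes are tested. H3K27me3 at 2 times input in DMSO was found elsewhere in 7 genes as reported (10.7% of all rows), 11 with median-of-ratios factors (18.7%), 15 with TMM factors (21.7%), 13 with a summed input of at least 1 (14.7%) and 2 among genes of 10 to 50 kb (8.01%), and on chromosome 19 in 2 and 0 genes under the last pair. Leaving out ZNF536, an alternative chosen after seeing the data, moved the MAK683 to DMSO ratio of the chromosome 19 share of H3K27me3 from 1.37 to 1.55. Other causes were not tested. No paired analysis was possible because each condition had 1 library. Genes with few counts limit the precision, as their intervals show.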

Other observations

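By chromosome, the members on chromosome 19 had the highest median log2 H3K27me3 change, 0.62, among the 22 chromosomes that held members. The next were chromosome 4, with 9 genes and a median of 0.59, and chromosome 12, with 6 genes and 0.57. Chromosome 7 held 31 members with a median of 0.36, chromosome 16 held 21 with 0.25, and chromosome 2 held 8 with 0.09, among them the developmental genes ZNF385B and ZNF804A. H3K4me3 over input in DMSO was highest on chromosome 16 among chromosomes with at least 10 members, with a median log2 ratio of 2.03. These are descriptions over genes of the same libraries, and no test was run.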
